A study of Mus musculus with 3 samples.

Results

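Chemokines are small secreted proteins that steer leukocytes, and 10 genes of this kind of signalling were followed across the pregnant mouse uterus by tissue region. The set held 6 chemokine ligands (Cxcl9, Cxcl10, Cxcl12, Cxcl14, Ccl21a and Xcl1), 2 growth factors of immune cells (Csf1 and Il15), and 2 receptors that hold or clear such ligands (Il15ra and Ackr3). Members were taken by gene symbol, which gave 11 of the 32285 gene rows in each count matrix. The symbol Ccl21a stands on 2 rows, and all of its UMIs lay on 1 of them, so 10 rows held counts.

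The samples were uterine sections of female mice that had been kept to 8 weeks of age, mated with stud males and dissected on pregnancy day 7.5. The sections were frozen and placed on 10x Visium slides, where RNA is caught by barcoded spots, each lying under several cells. With 1 group and no treatment in the series, the data were compared by tissue region. The labels name no strain, allele or agent. There were 3 libraries, of which 1 mixes sections of biological replicates 1 and 2 and counts as 1 replicate (library 1-2), so n = 3 with replicate 3 and replicate 4.

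A chemokine gradient forms where a ligand is made and is shaped by atypical receptors, which bind ligands without the usual signalling and remove them. CSF1 sustains macrophages through the receptor CSF1R, and IL-15, presented on the cell surface by IL15RA, sustains natural killer cells through the receptor chains IL2RB and IL2RG. In the mouse, natural killer cells gather in the decidua, the tissue into which the uterine stroma turns around the embryo, and decidual stromal cells are known to silence chemokine genes that would draw T cells.

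Cxcl9 and Cxcl10 lie next to each other on mouse chromosome 5, with 18558 bases between them, and both are known as interferon-induced ligands of the receptor CXCR3. Their promoter windows are shown because the 2 neighbours had unlike numbers of UMIs, and that of Cxcl14 because it held a match to the same interferon motif as that of Cxcl10. The windows run from 250 bases before to 50 bases after the transcription start on the gene's own strand (RefSeq, GRCm38.p6), at chr5:92328030-92328329 (minus strand) for Cxcl9, chr5:92348840-92349139 (minus strand) for Cxcl10 and chr13:56296502-56296801 (minus strand) for Cxcl14. Capitals mark matches to GAAANNGAAA, the core of the interferon-stimulated response element, and to GGGNNNTCC, a kappaB-type site.
Cxcl9: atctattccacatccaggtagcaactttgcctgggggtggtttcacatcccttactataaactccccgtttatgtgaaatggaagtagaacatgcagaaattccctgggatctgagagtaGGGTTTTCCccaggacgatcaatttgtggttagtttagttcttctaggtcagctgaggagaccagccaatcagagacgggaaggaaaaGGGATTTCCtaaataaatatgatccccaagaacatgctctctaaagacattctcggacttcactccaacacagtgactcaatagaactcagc
Cxcl10: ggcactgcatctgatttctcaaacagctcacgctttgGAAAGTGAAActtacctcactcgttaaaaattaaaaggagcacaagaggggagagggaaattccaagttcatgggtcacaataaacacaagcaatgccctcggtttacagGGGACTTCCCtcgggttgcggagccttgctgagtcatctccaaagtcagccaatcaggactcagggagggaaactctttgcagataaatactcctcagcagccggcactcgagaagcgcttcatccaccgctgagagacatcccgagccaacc
Cxcl14: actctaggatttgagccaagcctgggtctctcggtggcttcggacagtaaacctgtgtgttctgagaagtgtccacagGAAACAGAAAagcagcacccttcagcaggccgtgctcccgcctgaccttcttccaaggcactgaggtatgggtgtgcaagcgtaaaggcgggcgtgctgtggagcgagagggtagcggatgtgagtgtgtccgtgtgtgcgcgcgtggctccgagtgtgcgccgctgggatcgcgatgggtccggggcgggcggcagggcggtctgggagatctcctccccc
The search covered both strands of 10 windows of 9 of the 10 members, 2 of them for Il15ra. The interferon motif matched at -213 from the start of Cxcl10 and at -172 from that of Cxcl14, did not match in the Cxcl9 window, and is found in 3.44% of 32851 mouse promoter windows of the same length. The kappaB-type site matched at -130 and -42 in Cxcl9 and at -103 in Cxcl10, where a match on the other strand at -102 overlaps it, and 17.8% of windows hold it. The gamma-activated site TTCNNNGAA, left in lower case here, matched in the Cxcl14 window alone among the members, at -191, and 8.30% of windows hold it.

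Spots with at least 1000 UMIs numbered 3939 of 3978. All deposited spots together carried 16915926 to 29953072 UMIs per library. Their median was 8038 UMIs per spot in library 1-2, 26543 in replicate 3 and 28286 in replicate 4. Barcodes shared between libraries numbered 676 to 825 per pair, as slides carry one common barcode set. Spots were clustered on genes other than the members and the marker lists into 11 regions, each with at least 39 spots in every library. Regions carry a number and, here, the clustering genes by which they stood out most, which were not tested. Smooth muscle markers, such as Cnn1 and Myh11, were highest in region 3 (Nppa, Fbxl22, Ppp1r12b), where the list summed to 24661 CPM (UMIs of a gene or list per all UMIs of the same spots, scaled to one common total). Region 1 (Col6a3, Spon2, Sfrp1) held 11820 CPM of them and 15788 CPM of stromal fibroblast markers. Natural killer cell markers, such as granzymes, were highest in region 2 (Spp1, AW112010, Chn1) at 19192 CPM. Decidual markers were highest in region 10 (Tnnc1, Htra1, Arhgef6), with 50301 CPM in region 4 (Olr1, Psca, Kcnn4) and 34161 CPM in region 6 (Mrgprg, Klk8, Pyy), beside 5335 CPM of neutrophil markers in region 6. Gland and epithelium markers were highest in region 8 (Prxl2a, Igfbp3, C3) at 7838 CPM, and trophoblast markers in region 11 (Prl4a1, H19, Plet1) at 3043 CPM. Region 11 was mixed, since 3 of 3 tested epiblast and mesoderm markers, 4 of 5 yolk sac endoderm markers, 5 of 5 red blood cell markers and 6 of 8 gland and epithelium markers were also called higher there. Regions 5 (Scn3b, Vsig2, Pmaip1), 7 (Stmn2, Dppa1, Hmgn5) and 9 (Pdzk1ip1, Sfrp5, Rec114) complete the set. T and B cell markers summed to 20.2 CPM at most in any region of any library.

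For each library and region 1 sum of UMI counts was formed. edgeR's quasi-likelihood test, with the library as a block, compared each region's log2 level with the mean of the log2 levels of all other regions. Regions with few UMIs of a gene pull that mean down. A value called higher can thus lie below the plain mean CPM of the other regions. Ratios and floors given for few UMIs use that plain mean. Values are called where the Benjamini-Hochberg adjusted p over 6424 genes lies under 0.05 and the log2 fold change is 1 or more in size. Of the members, 9 were tested, and Cxcl9 was below the filter on low counts. Across the 11 regions 33 member values were called higher and 30 lower. Against the pooled other spots in place of the mean of the regions, the split was 17 higher and 51 lower, and with regions drawn from a second gene set it was 37 and 13.

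In region 1, 7 of the 9 members tested were called higher, against 15.1% of all genes tested, and in region 2 it was 6, against 9.84%. In region 3 it was 4, against 16.9%, and in region 8 it was 6, against 11.7%.
Higher calls were fewer elsewhere, with 3 in region 5 (7.89% of all genes), 2 in region 6 (13.5%), 3 in region 7 (6.65%), 1 in region 9 (4.45%) and 1 in region 11 (13.4%). In regions 4 and 10 the count was 0, against 6.76% and 13.1% of all genes, and it was also 0 there at an unadjusted p under 0.05 in edgeR and with DESeq2.
Regions 4, 10 and 11 took most lower calls. Lower calls numbered 7 in region 4 (10.1% of all genes), 5 in region 10 (16.7%) and 6 in region 11 (14.4%). They numbered 3 each in regions 5 (5.59%), 6 (7.04%) and 9 (7.29%), and 1 each in regions 2 (8.55%), 3 (7.74%) and 8 (2.66%). In regions 1 (7.58% of all genes) and 7 (5.95%) the count was 0, also at an unadjusted p under 0.05 in edgeR and with DESeq2.

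**Figure D1:**
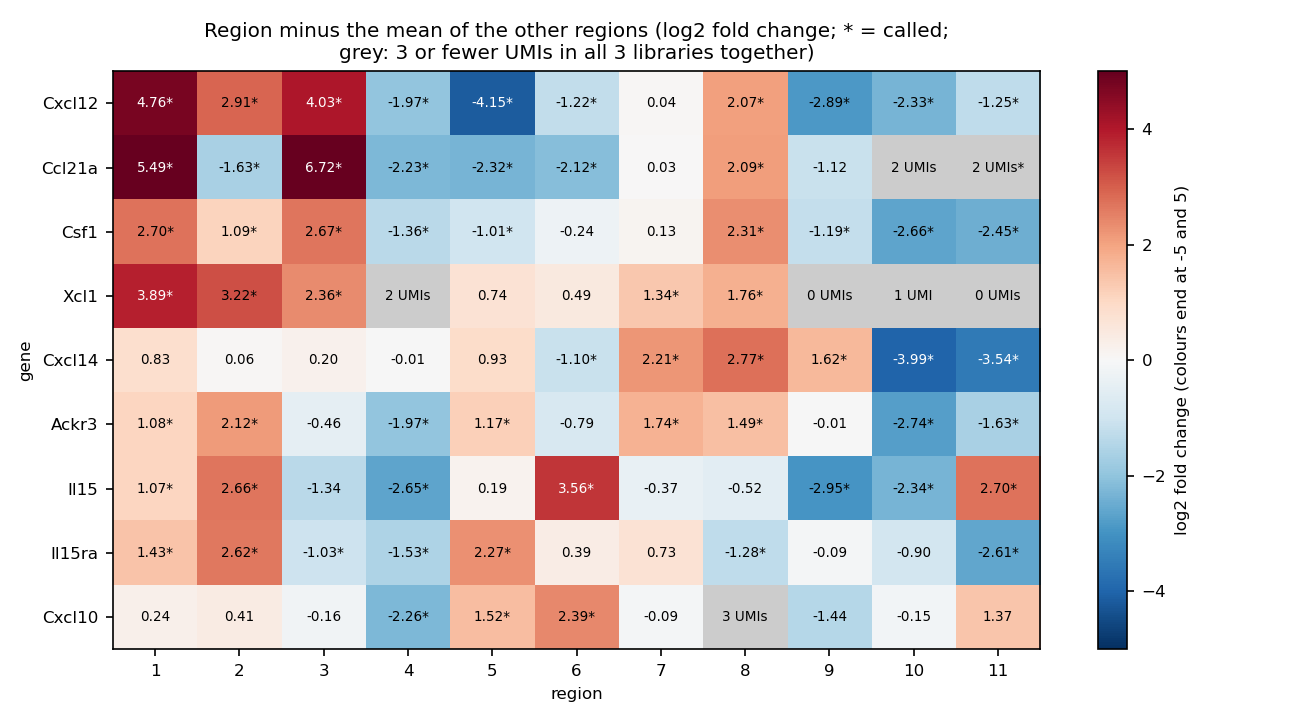
The map gives the log2 fold change of the 9 members tested (rows) in the 11 regions (columns). It is the log2 level of a region minus the mean log2 level of the remaining regions. An asterisk marks a call, and grey cells mark 3 or fewer UMIs in all. Cxcl12, Ccl21a, Csf1 and Xcl1 are high together in regions 1 and 3, Il15 and Il15ra in region 2, and Cxcl14 in regions 7, 8 and 9.

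Cxcl12, the ligand of the receptors CXCR4 and ACKR3, was highest in regions 1 and 3. The gene lies on chromosome 6 from 117168535 to 117181367 (plus strand, GRCm38). In region 1 it stood at 137.5 CPM in library 1-2, 152.8 in replicate 3 and 156.4 in replicate 4. Region 3 had 83.7, 82.4 and 80.2 CPM in the same libraries. The first 6 places in the order, regions 1, 3, 2, 8, 7 and 11, did not overlap between neighbours, while all later neighbours did.
The log2 fold change over the other regions was 4.76 ± 0.14 (SE) in region 1 (adjusted p = 2.91e-26) and 4.03 ± 0.18 in region 3 (6.80e-21). Region 2, with 56.8, 31.5 and 62.6 CPM, was higher by 2.91 ± 0.17, and region 8, with 27.9, 28.8 and 18.5 CPM, by 2.07 ± 0.25. Against pooled other spots neither of these last was called, at 0.64 for region 2 and -0.19 for region 8. In a spot that holds several cells, fewer cells of a type and less RNA per cell cannot be told apart, here and in all results below.
The lowest level was in region 5, at 0.81, 0.32 and 0.29 CPM, which was lower by 4.15 on the log2 scale (-4.15 ± 0.49, 4 UMIs in all). Regions 4 (-1.97), 9 (-2.89), 10 (-2.33), 6 (-1.22) and 11 (-1.25) were also lower. The call in region 6 was lost without library 1-2 (-0.84), and the value was -1.82 without replicate 3. Those in region 10 (-1.59) and 11 (-1.40) were lost without replicate 4, and that in region 11 also without replicate 3 (-1.04). Region 4 was at -2.60 without replicate 4. Cxcl12 was supplied to 51.9% ± 7.18 (SD, n = 3) by region 1, 22.2% ± 3.69 by region 2 and 16.1% ± 8.02 by region 3, where a supply is the share of a library's UMIs of the gene that lay in the region. Regions 1, 2 and 3 together thus held 90.2% ± 2.10 of it.

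**Figure D2:**
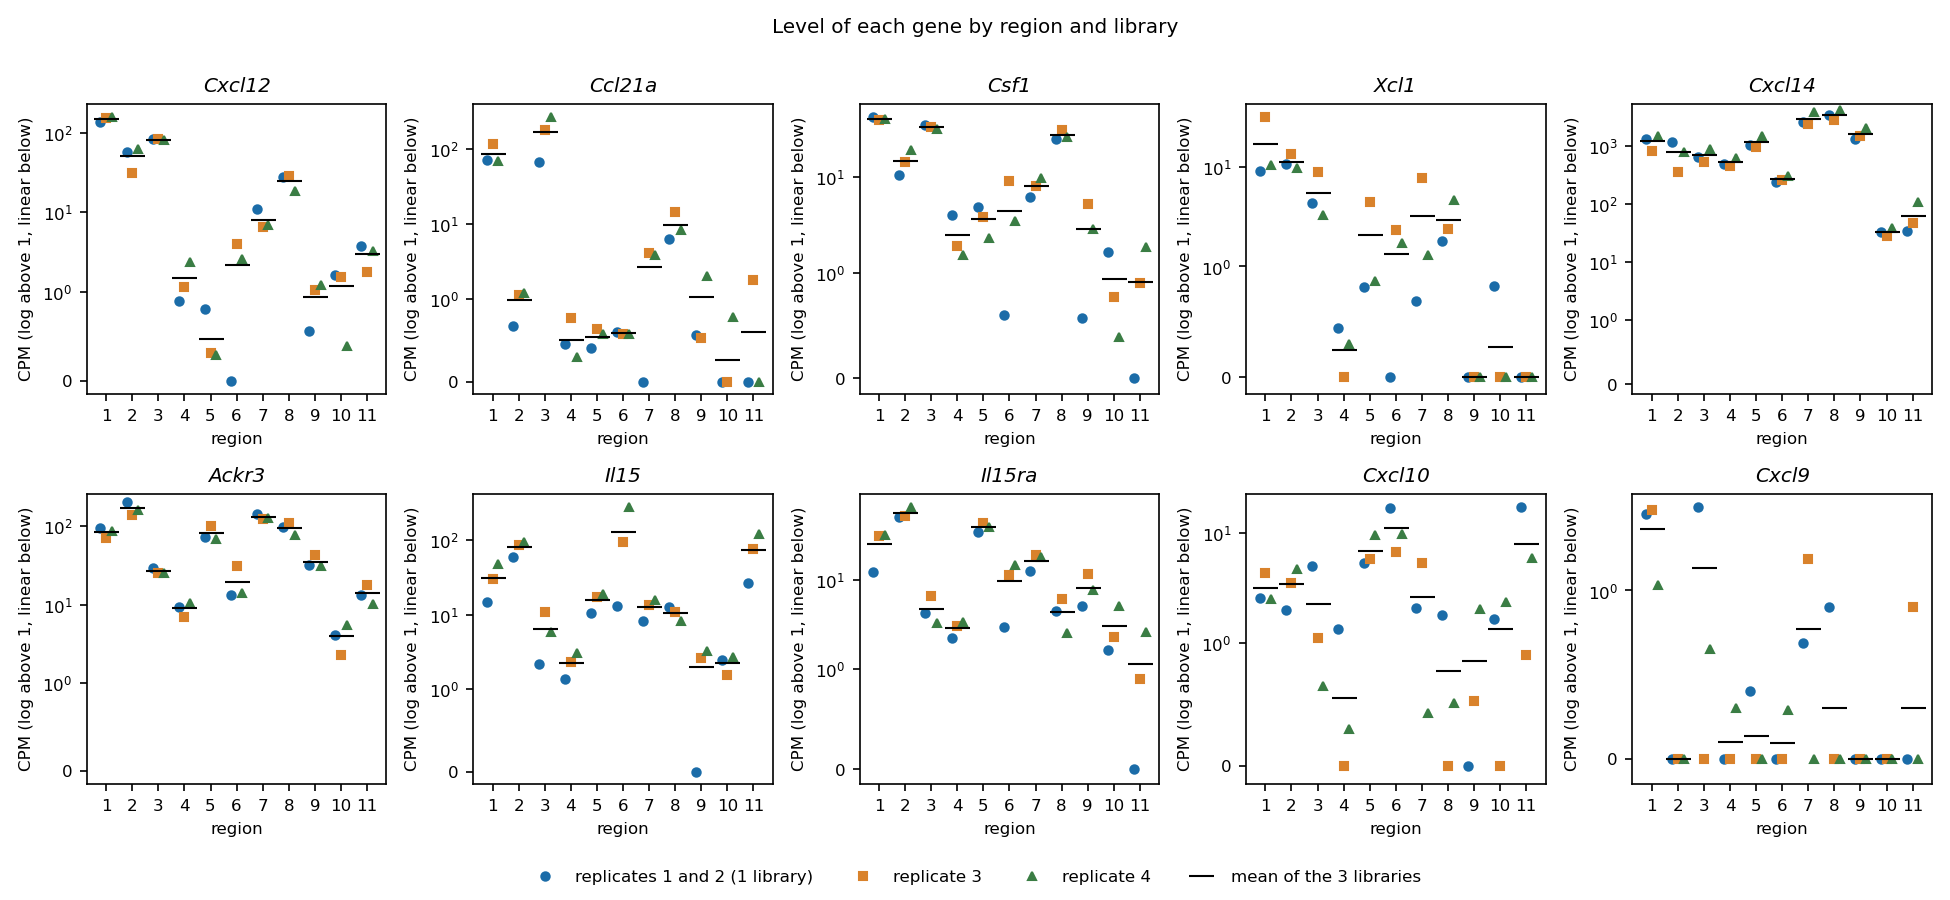
Each panel gives 1 gene's level in CPM (log above 1, linear below) by region, with a point per library and a bar at the mean of 3. The 3 libraries lie close together for Cxcl12, Csf1, Cxcl14 and Ackr3 in their highest regions, and spread widely for Il15 in region 6, from 13.2 to 278.5 CPM.

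Ccl21a, a ligand of CCR7 made above all by lymphatic endothelium and lymph node stroma, was nearly confined to regions 1 and 3, with the higher mean in region 3. Its gene is on chromosome 4 from 42772860 to 42773993 (minus strand). Region 3 had 68.0, 179.2 and 269.4 CPM in library 1-2, replicate 3 and replicate 4, and region 1 had 72.0, 119.6 and 70.8 CPM. The library values of the 2 regions overlapped, and region 1 was above region 3 in library 1-2.
The log2 fold change was 6.72 ± 0.21 in region 3 (adjusted p = 5.26e-22) and 5.49 ± 0.22 in region 1 (4.13e-19). Against pooled other spots region 1 was at 2.90 with an adjusted p = 0.053. Region 8 was higher by 2.09 ± 0.46 at 6.30, 14.4 and 8.20 CPM, a call lost without replicate 3 (2.13, adjusted p = 0.15) and turned round against pooled other spots (-1.02).
Regions 1 and 3 held 93.9% ± 0.52 of the Ccl21a UMIs, and their share of all UMIs was far smaller, at 10.1% and 5.58%. Region 2, next to them in Cxcl12, had 0.67, 1.12 and 1.18 CPM of Ccl21a and was called lower (-1.63 ± 0.59). Regions 4 (-2.23), 5 (-2.32) and 6 (-2.12) were called lower on 4 to 5 UMIs each. Without replicate 3 or replicate 4 all of these lower calls of Ccl21a were lost, at values from -1.34 in region 2 to -2.26 in region 4. In region 11 it had 2 UMIs in all, a ratio of 0.0167 to the mean of the other regions (95% Poisson interval 0.00202 to 0.0602, counting error only), and that call too was lost without replicate 3 or replicate 4. The near-identical genes Ccl21b and Ccl21c had 0 UMIs on all of their rows, so how reads of the family were divided among its rows is uncertain.

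Within region 1 and within region 3, each taken alone, Ccl21a was higher where lymphatic markers were denser. In region 1 the upper quartile of spots by summed lymphatic endothelium markers stood at 182.5, 388.3 and 140.1 CPM, against 41.7, 49.9 and 51.1 CPM in the other spots of library 1-2, replicate 3 and replicate 4. In region 3 it stood at 128.6, 546.9 and 897.4 CPM, against 47.1, 68.6 and 95.0 CPM. The upper quartile was higher in 3 of 3 libraries in both regions, and its median depth was 11640 UMIs in region 1, against 14230 UMIs in the other spots, and 6053 UMIs in region 3, against 5762 UMIs.
Smooth muscle markers gave opposite orders in the 2 regions. By that list Ccl21a had 174.1, 237.0 and 115.5 CPM in the upper quartile of region 1, against 41.7, 88.3 and 53.6 CPM in its other spots, higher in 3 of 3 libraries. In region 3 it had 16.4, 13.2 and 104.5 CPM, against 95.6, 261.7 and 333.8 CPM, lower in 3 of 3.
Of the lymphatic list, 3 of 5 tested genes were called higher in region 1 (15.1% of all genes) and 2 in region 3 (16.9%). The count was also 3 in region 5 (7.89%), where Ccl21a was called lower, and 2 each in regions 6 (13.5%), 7 (6.65%) and 9 (4.45%). All 6 genes of the list had UMIs in regions 1 and 3. Mmrn1, a protein of lymphatic vessel walls, had 16.1, 15.4 and 8.31 CPM in region 1 (4.90 ± 0.46) and 7.15, 17.6 and 18.9 CPM in region 3 (5.33 ± 0.53). The list summed to 92.3 to 170.9 CPM in regions 1 and 3 and to 12.3 to 300.4 CPM in the other regions, and its part in the level of Ccl21a was not tested.

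Csf1, the growth factor of macrophages, was highest in regions 1, 3 and 8, in that order. The gene spans chromosome 3 from 107741048 to 107760469 (minus strand). Region 1 had 43.0, 40.3 and 40.8 CPM in library 1-2, replicate 3 and replicate 4. Region 3 had 35.8, 34.1 and 32.6 CPM, and region 8 had 25.2, 31.2 and 26.7 CPM. None of the neighbours among the first 5 places (regions 1, 3, 8, 2 and 7) overlapped, though regions 1 and 3 differed by only 1.21 times.
Log2 fold changes were 2.70 ± 0.20 in region 1 (adjusted p = 1.19e-13), 2.67 ± 0.25 in region 3 and 2.31 ± 0.27 in region 8. Region 2, at 10.7, 14.5 and 19.5 CPM, was higher by 1.09 ± 0.23, a call lost without replicate 4 (0.85) and against pooled other spots (0.21). Csf1 was lower in regions 4 (-1.36), 5 (-1.01), 9 (-1.19), 10 (-2.66) and 11 (-2.45).
The lower calls rested on few UMIs. Those in regions 4 (-1.01), 5 (-0.73), 9 (-1.15) and 10 (-2.04) were lost without replicate 4, those in regions 4 (-1.10) and 5 (-0.96) without replicate 3, and that in region 9 without library 1-2 (-0.71). Region 10 was at -3.32 without library 1-2 and region 11 at -3.56 without replicate 4. With regions from the second gene set region 5 turned to 0.25.
The receptor gene Csf1r had another map. It stood at 480.7, 560.1 and 922.4 CPM in region 6 (3.92 ± 0.13) and was also called higher in regions 10 (2.72) and 11 (2.94), while Csf1 in region 6 had 0.60, 9.23 and 3.45 CPM. In region 2 Csf1r was called lower (-1.90 ± 0.22), at 15.4, 23.3 and 23.0 CPM. In region 1 it was not called (-0.59). Other macrophage markers, such as the complement gene C1qa (131.7, 158.3 and 161.5 CPM in region 1, 3.19 ± 0.12), were called higher where Csf1 was: of 14 tested genes of that list, Csf1r included, 10 were higher in region 1, 8 in region 3 and 8 in region 8. In region 2, which Csf1 also marked, 6 were higher and 2 lower. The list summed to 1180 to 1802 CPM in regions 1 and 3, to 1252 to 2203 CPM in region 2 and to 926.6 to 1280 CPM in region 8. In region 6, where Csf1 was not called, it summed to 842.4 to 1408 CPM, Csf1r included. The lowest value of the list in any region was 171.2 CPM. Its part in the Csf1 level was not tested.

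Xcl1, a ligand made by natural killer and T cells for the receptor XCR1 of cross-presenting dendritic cells, was highest in regions 1 and 2. It lies on chromosome 1 from 164931644 to 164935527 (minus strand) and had 43, 236 and 89 UMIs in the 3 libraries. Region 1 had 8.99, 31.4 and 10.5 CPM and region 2 had 10.7, 13.2 and 9.74 CPM. Their library values overlapped, and region 1 was the higher in 2 of 3 libraries.
Fold changes over the other regions were 3.89 ± 0.34 in region 1 (adjusted p = 1.04e-11), 3.22 ± 0.36 in region 2 and 2.36 ± 0.56 in region 3. Region 3, at 4.29, 8.79 and 3.26 CPM, was no longer called against pooled other spots (0.37). Regions 7 (1.34 ± 0.49) and 8 (1.76 ± 0.60) passed too. The value in region 7 rested on replicate 3, with 19 of its 23 UMIs, and was -0.06 without it, 1.68 without replicate 4 (adjusted p = 0.058) and 1.95 without library 1-2. That in region 8 was 0.84 without replicate 4.
Against pooled other spots both turned round, to -0.65 in region 7 and -0.19 in region 8. Regions 9 and 11 had 0 UMIs of Xcl1 in all 3 libraries, which puts them at least 8.95-fold and 6.34-fold lower than the mean of the other regions, counting 3 UMIs over the libraries as the floor. Region 4 had 2 UMIs, a ratio of 0.0565 (0.00684 to 0.204), and region 10 had 1, a ratio of 0.0453 (0.00115 to 0.253).
Xcl1 was supplied about equally by region 1 (36.1% ± 6.15) and region 2 (36.5% ± 1.14). Natural killer cell markers were called higher in both, with 16 of 18 tested genes in region 1 and 15 in region 2, but their summed level was unlike, at 1009 to 5792 CPM in region 1 and 12058 to 25510 CPM in region 2. Ncr1, an activating receptor of these cells, had 6.43, 24.9 and 7.95 CPM in region 1 (3.85 ± 0.30) and 24.7, 66.0 and 32.5 CPM in region 2 (5.69 ± 0.22).
Within region 2, Xcl1 was lower where the markers were denser: the upper quartile of spots by natural killer cell markers had 7.64, 9.77 and 2.43 CPM, against 11.8, 14.4 and 12.1 CPM in the other spots. That order held in 3 of 3 libraries, on median depths of 27344 and 25460 UMIs. Region 2 held 16, 83 and 33 Xcl1 UMIs in the 3 libraries, so the levels of the upper quartile rested on few UMIs. Whether Xcl1 tracks a part of these cells was not tested.

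Cxcl14, a chemokine of epithelia and stroma whose receptor is not settled, was by far the most widely detected member and marked regions 7, 8 and 9. The locus is on chromosome 13 from 56288643 to 56296551 (minus strand) and had 77878 UMIs in the kept spots. Region 8 had 3387, 2768 and 4056 CPM in library 1-2, replicate 3 and replicate 4. Region 7 had 2501, 2377 and 3722 CPM, below region 8 in each library though the ranges overlapped. Region 9 had 1279, 1491 and 2048 CPM.
On the log2 scale the changes were 2.77 ± 0.14 in region 8 (adjusted p = 4.15e-13), 2.21 ± 0.15 in region 7 and 1.62 ± 0.15 in region 9. Region 9 was not called against pooled other spots (0.84). Regions 1 (0.83 ± 0.17) and 5 (0.93 ± 0.16) had adjusted p under the threshold but folds under the minimum of 1.
Region 10 stood at 32.1, 27.8 and 38.9 CPM (-3.99 ± 0.27) and region 11 at 34.1, 45.9 and 107.5 CPM (-3.54 ± 0.26). Region 6 was called lower too (-1.10 ± 0.20), at 235.6, 258.7 and 297.2 CPM. Without each library in turn all 6 calls of Cxcl14 held. With regions from the second gene set region 6 was not called (-0.46).
At a fixed depth of 3000 UMIs per spot, all spots of region 8 had a Cxcl14 UMI (100% in each library) and 7.61% ± 0.07 of the spots of region 10, where without thinning the share in region 10 was 46.9% ± 17.5. Regions 7, 8 and 9 supplied 53.6% ± 2.68 of Cxcl14, and regions 1, 2 and 3 supplied 23.7% ± 2.27. Stromal fibroblast markers were called higher in region 7 with 8 of 11 tested genes and in region 8 with 9, but also in regions 1 and 3 with 9 each, where Cxcl14 was not called. Gland markers were called higher in region 8 with 5 of 8 tested genes and lower in region 7 with 5. In the upper quartile of spots of region 8 by gland markers Cxcl14 had 3030, 2705 and 3208 CPM, against 3478, 2784 and 4245 CPM in the other spots, and was lower in 3 of 3 libraries. Csf1 in the same spots had 35.7, 41.1 and 45.0 CPM, against 22.6, 28.6 and 22.6 CPM, higher in 3 of 3. The part of either cell type in these levels was not tested.

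Ackr3, the atypical receptor that binds and clears CXCL12, was highest in region 2. It is encoded on chromosome 1 from 90203980 to 90216751 (plus strand). Region 2 had 203.2, 138.0 and 159.9 CPM in library 1-2, replicate 3 and replicate 4. Region 7 had 141.9, 120.8 and 124.9 CPM, below region 2 in each library but with overlapping ranges. Region 8 had 96.3, 110.3 and 75.9 CPM, and its values overlapped those of regions 1 and 5.
The fold changes were 2.12 ± 0.12 in region 2 (adjusted p = 6.25e-16), 1.74 ± 0.13 in region 7, 1.49 ± 0.15 in region 8, 1.17 ± 0.13 in region 5 and 1.08 ± 0.14 in region 1. Against pooled other spots the last 4 fell under the minimum fold, at 0.98, 0.65, 0.35 and 0.23. Region 1 was at 0.97 without replicate 4 and region 5 at 0.99 without replicate 3. Regions 4 (-1.97 ± 0.21), 10 (-2.74 ± 0.30) and 11 (-1.63 ± 0.24) were lower, and region 3 was not called (-0.46).
Set beside its ligand, Ackr3 in region 5 had 72.9, 100.8 and 67.3 CPM where Cxcl12 was at its lowest, and in region 3 it had 29.3, 25.3 and 25.4 CPM where Cxcl12 was second highest. Regions 1, 2 and 8 were called higher for both. Within region 2 they parted: in the upper quartile of spots by decidual markers Cxcl12 stood at 4.78, 7.63 and 18.5 CPM, against 77.0, 39.5 and 80.4 CPM in the other spots, while Ackr3 had 195.9, 145.7 and 158.1 CPM, against 206.0, 135.4 and 160.7 CPM. Cxcl12 was lower in the upper quartile in 3 of 3 libraries and Ackr3 in 2 of 3. Another atypical receptor, Ackr4, which clears CCL21, was highest in region 6 at 74.1, 117.1 and 145.2 CPM (3.06 ± 0.23) and lower in region 3 at 3.58, 6.60 and 9.78 CPM (-1.57 ± 0.56), where Ccl21a was highest.

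Il15 was high in 3 regions that differ in their markers: region 6, region 2 and region 11. It lies on chromosome 8 from 82331632 to 82403222 (minus strand). Region 6 had 13.2, 94.9 and 278.5 CPM in library 1-2, replicate 3 and replicate 4. Region 2 had 59.5, 87.8 and 93.8 CPM, and region 11 had 26.6, 77.4 and 120.8 CPM. All neighbours in the order of Il15 levels overlapped, and in library 1-2 region 2 was the highest and region 6 below regions 1, 2 and 11.
Its log2 fold changes were 3.56 ± 0.27 in region 6 (adjusted p = 3.30e-10), 2.66 ± 0.30 in region 2 and 2.70 ± 0.35 in region 11. Region 6 was at 2.53 without replicate 4. Against pooled other spots region 6 had 2.11 with an adjusted p = 0.16 and region 2 had 1.28 with an adjusted p = 0.22, so neither was called.
Region 1, at 14.8, 30.1 and 47.3 CPM, was higher by 1.07 ± 0.37, but was not called without replicate 3 (1.17) or replicate 4 (0.86) and turned to -0.57 against pooled other spots. Regions 4 (-2.65 ± 0.68), 9 (-2.95 ± 0.75) and 10 (-2.34 ± 0.82) were lower, at 3.24 CPM or less in every library. Without replicate 3 these 3 calls were lost, at -2.61, -3.11 and -2.12.

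Much of the Il15 signal in replicates 3 and 4 lay in few spots. The 3 spots with the most Il15 UMIs held 229, 183 and 99 of them in replicate 4 and 90, 52 and 26 in replicate 3, whereas in library 1-2 they held 5, 4 and 4. Spots with at least 20 Il15 UMIs, a limit chosen after these values were seen, numbered 14 in replicate 4, 3 in replicate 3 and 0 in library 1-2, and all lay in regions 6 and 11. They held 52.1% of the Il15 UMIs of replicate 4 and 14.2% of those of replicate 3.
Without them region 6 had 13.2, 54.6 and 56.2 CPM and region 11 had 26.6, 55.1 and 49.8 CPM, both below region 2 in each library. In these spots the trophoblast markers summed to 1704 CPM in replicate 3 and 1684 CPM in replicate 4, against 1142 and 1167 CPM in the other spots of regions 6 and 11. Decidual markers summed to 20132 and 32484 CPM, against 19662 and 22700 CPM. Natural killer cell markers stood at 1948 and 1236 CPM, against 3544 and 962.1 CPM, and neutrophil markers at 1780 and 4268 CPM, against 4436 and 4269 CPM. Spots rich in Il15 numbered 2 in region 6 and 1 in region 11 in replicate 3, and 9 and 5 in replicate 4. Region 6 as a whole held 214.0 to 281.4 CPM of trophoblast markers, far below region 11. These pooled values thus mix both regions and do not compare a spot with its own region. Against all other spots of both replicates, the genes that stood out most in them beside Il15 were Prl8a9, of the placental prolactin family, at 6889 CPM against 137.4 CPM, and Prl6a1, of the same family, at 2006 against 49.4 CPM. Csf1r, which came after several other genes in that order, had 1951 against 142.3 CPM. It was called higher in regions 6 and 11 as a whole, where all these spots lay. These gaps thus do not compare the spots with their own regions. Since the spots were chosen by Il15 and the genes after their values were seen, this is a description.
Trophoblast markers were called higher in region 11 with 7 of 8 tested genes and in region 6 with 6, such as Plac1 (10.8, 21.3 and 17.0 CPM in region 6, 2.09 ± 0.26), while 6 were called lower in region 2. The list summed to 214.0 to 3933 CPM in regions 6 and 11 and to 68.3 to 308.7 CPM in the others, with Prl2c2 at 0 in region 6. In the upper quartile of spots of region 6 by trophoblast markers Il15 had 20.3, 252.5 and 951.6 CPM, against 10.95, 43.3 and 71.4 CPM in its other spots. It was higher in 3 of 3 libraries, on median depths of 25395 and 26154 UMIs. In region 11 the same comparison gave 25.4, 79.2 and 97.4 CPM, against 27.1, 76.9 and 129.7 CPM, higher in 1 of 3 libraries. By natural killer cell markers Il15 was higher in the upper quartile of region 11 in 3 of 3 libraries, at 38.8, 179.1 and 334.2 CPM, against 22.6, 43.3 and 58.5 CPM. In region 6 it had 17.7, 94.7 and 506.0 CPM, against 11.7, 95.0 and 234.1 CPM, higher in 2 of 3. The part of either cell type in the Il15 level was not tested.

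**Figure D3:**
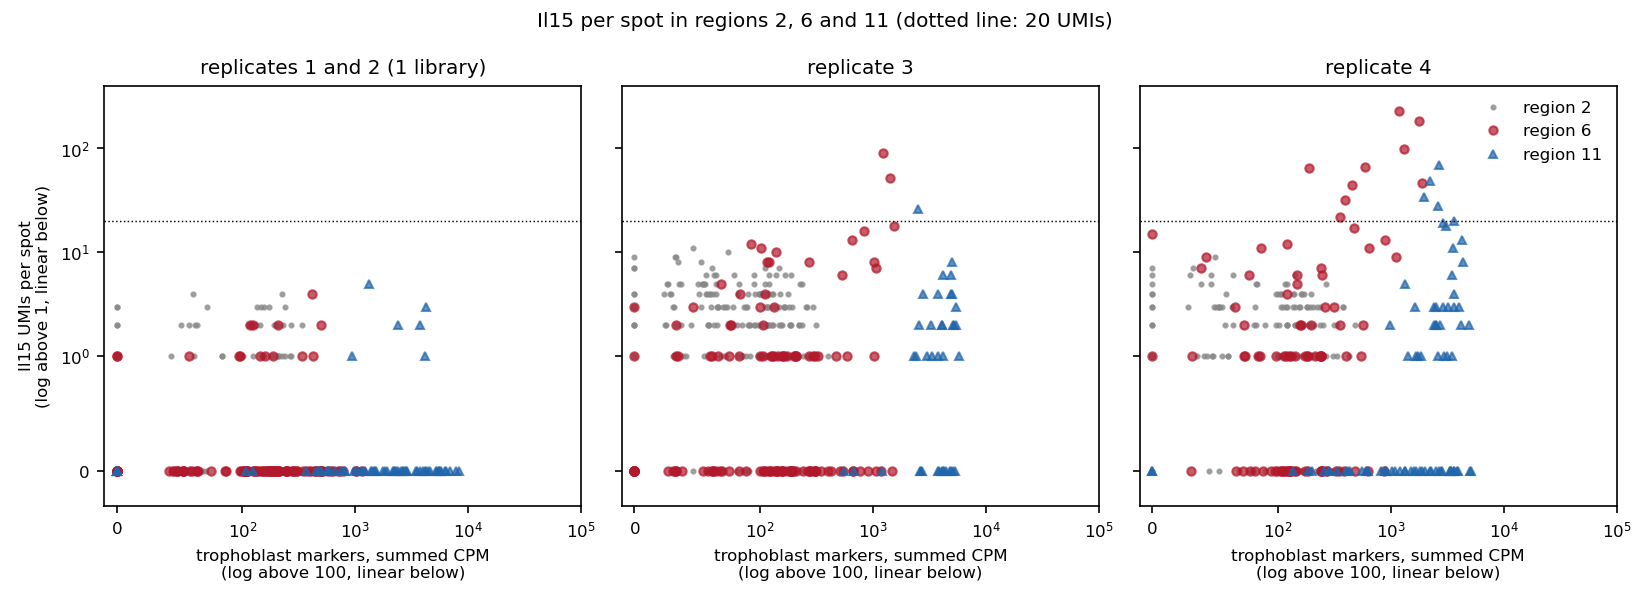
Each point is a spot of region 2, 6 or 11, with its Il15 UMIs (vertical axis) and its summed trophoblast markers in CPM (horizontal axis), 1 panel per library, both axes log with a linear stretch near 0. Spots on or above the dotted line at 20 UMIs number 3 in replicate 3 and 14 in replicate 4, and none belongs to region 2.

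Il15ra, which presents IL-15, shared region 2 with its ligand but not region 11. Its gene is on chromosome 2 from 11705290 to 11734317 (plus strand). Region 2 had 50.1, 50.4 and 64.0 CPM in library 1-2, replicate 3 and replicate 4, and region 5 had 33.6, 42.3 and 38.7 CPM. Region 1 had 12.2, 30.4 and 31.1 CPM. The 3 regions did not overlap and held this order in every library.
The fold changes were 2.62 ± 0.15 in region 2 (adjusted p = 1.30e-17), 2.27 ± 0.16 in region 5 and 1.43 ± 0.18 in region 1. Region 1 was at 0.27 against pooled other spots. In region 11, where Il15 was called higher, Il15ra had 0, 0.90 and 2.58 CPM and was called lower (-2.61 ± 0.42), at -3.88 without replicate 4. In region 6 it had 2.99, 11.2 and 14.4 CPM and was not called (0.39).
Regions 4 (-1.53), 8 (-1.28) and 3 (-1.03) were lower as well. Without replicate 4 the calls in regions 3 (-0.47) and 8 (-0.57) were lost, and in region 3 the value was 0.69 at a coarser clustering, where regions 1 and 3 match the same larger region. Regions 2 and 5 supplied 65.2% ± 5.04 of Il15ra, and for Il15 the same share was 55.0%, 51.1% and 20.2% in library 1-2, replicate 3 and replicate 4. Regions 6 and 11 supplied 17.2%, 35.1% and 68.3% of Il15 and 5.93% ± 3.75 of Il15ra.
The signalling chains of the IL-15 receptor were also highest in region 2. Il2rb had 209.9, 334.6 and 305.7 CPM there (4.40 ± 0.21), and Il2rg, the common gamma chain, had 20.1, 35.1 and 30.1 CPM (1.31 ± 0.19). Il2rb was called higher in region 1 too (2.14 ± 0.27). Of the 7 tested genes of the pathway 5 were called higher in region 2 (9.84% of all genes) and 4 in region 1 (15.1%). The count was 2 each in regions 3 (16.9%), 5 (7.89%), 8 (11.7%) and 11 (13.4%). It was 1 in region 6 (13.5%), namely Il2ra, a count near the share of all genes. The median log2 fold change of these 7 genes was 1.31 in region 2 and 1.28 in region 1, beside 0.04 and 0.05 over all genes tested.
Inside region 1, Il15 had 31.2, 31.8 and 50.1 CPM in the upper quartile of spots by natural killer cell markers, against 8.12, 29.5 and 46.8 CPM in the other spots. It was higher in 3 of 3 libraries, though by little in replicates 3 and 4, on median depths of 11228 and 14262 UMIs. In region 3 Il15 had 2.91, 12.2 and 11.6 CPM, against 1.90, 10.3 and 3.63 CPM, also higher in 3 of 3. That region held only 3, 10 and 9 Il15 UMIs in the 3 libraries, too few to settle the order. Il15ra was higher in the upper quartile in 2 of 3 libraries in region 1 and in 1 of 3 in region 3. The part of natural killer cells in these levels was not tested.

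**Figure D4:**
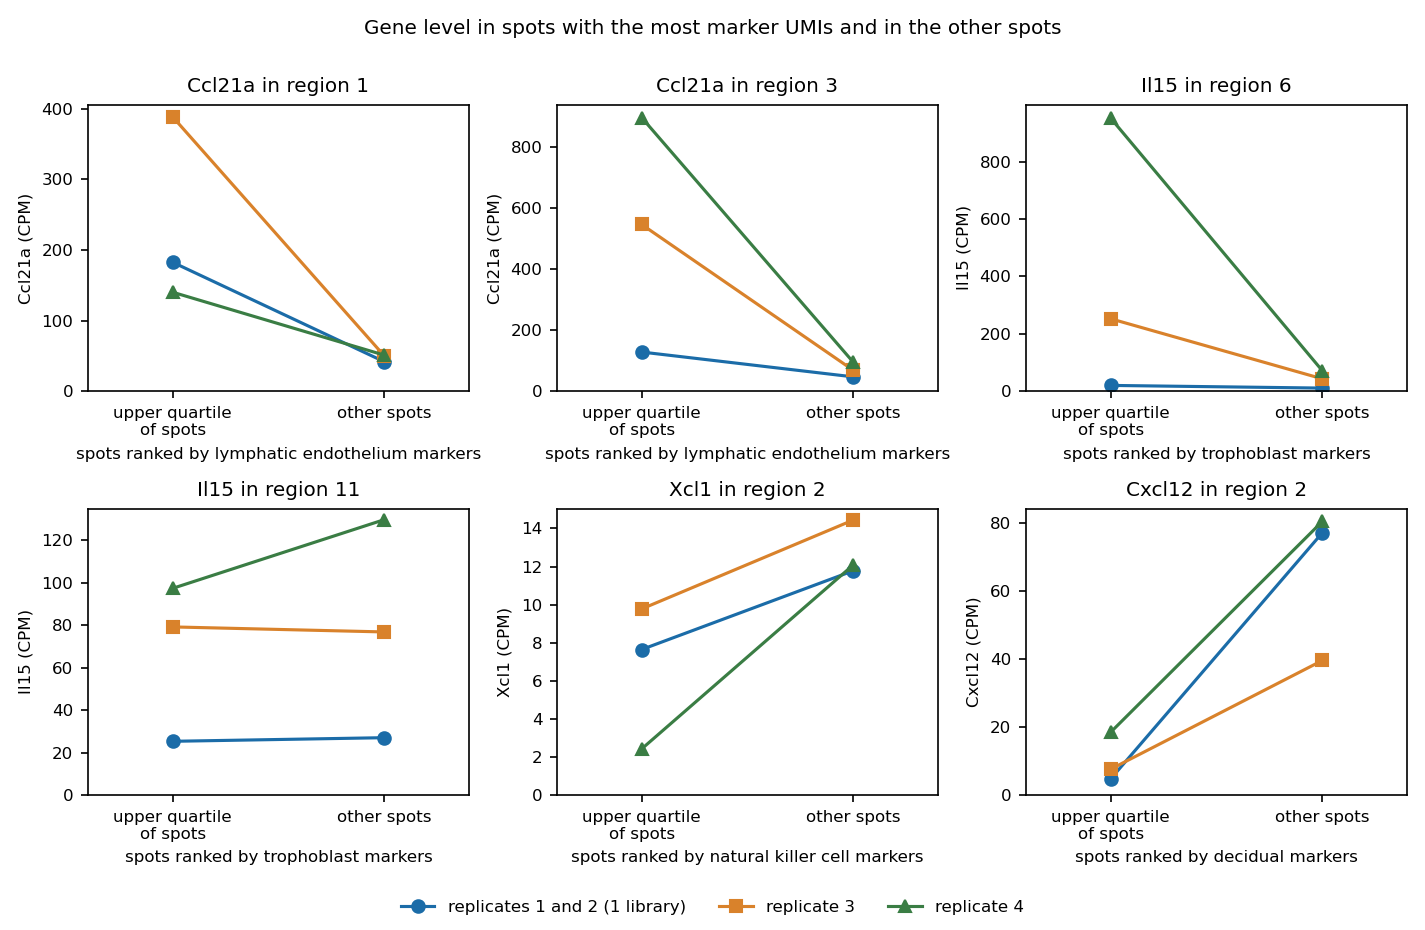
Each panel gives the level of 1 gene in CPM in the upper quartile of spots by a marker list (left) and in the other spots of the same region (right), with a line per library. Ccl21a in regions 1 and 3 and Il15 in region 6 are higher on the left in 3 of 3 libraries, Xcl1 and Cxcl12 in region 2 are lower there in 3 of 3, and Il15 in region 11 is higher in 1 of 3. The Xcl1 levels on the left rest on few UMIs.

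Cxcl10, an interferon-induced ligand of CXCR3, was low and highest in regions 6, 11 and 5. The gene spans chromosome 5 from 92346638 to 92348889 (minus strand) and had 74, 93 and 121 UMIs in the 3 libraries. In replicate 4, 1 spot held 18 of these UMIs and the next held 6. Only regions 5 and 6 had that many in replicate 4, at 33 and 34, so 1 of them rests largely on that spot. Region 6 had 16.7, 6.63 and 9.77 CPM and region 5 had 5.27, 5.72 and 9.54 CPM. Region 11 had 17.1, 0.90 and 5.89 CPM, with 1 UMI in replicate 3, and overlapped both.
Log2 fold changes were 2.39 ± 0.41 in region 6 (adjusted p = 1.37e-05) and 1.52 ± 0.43 in region 5, a call lost without replicate 4 (1.24, adjusted p = 0.16). Region 11 was not called (1.37, adjusted p = 0.051). Region 4, with 4 UMIs, was lower (-2.26 ± 0.88), a call lost without replicate 3 (-1.79) or replicate 4 (-1.81) and at -3.38 without library 1-2.
Other interferon-response genes were called higher in region 5 with 16 of 22 tested genes and in region 6 with 10. In region 6 these included Isg15, a ubiquitin-like protein, at 168.0, 375.8 and 414.5 CPM (2.27 ± 0.16), and Irf7, a transcription factor, at 108.8, 145.4 and 123.3 CPM (1.19 ± 0.10). Regions 1 and 2 had 10 and 8 higher calls of this list, and Cxcl10 was not called there (0.24 and 0.41). The median log2 fold change of the list was highest in region 5, not in region 6. It was 0.92 in region 6, 0.85 in region 1 and 0.89 in region 2, beside 0.01, 0.05 and 0.04 over all genes tested. Inside region 6, Cxcl10 was higher in the upper quartile of spots by natural killer cell markers in 3 of 3 libraries, at 22.8, 10.9 and 17.6 CPM, against 14.9, 5.10 and 8.25 CPM, and in region 11 in 2 of 3.

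Cxcl9, the other interferon-induced ligand, had 35 UMIs in 31 spots of 3939 and was not tested. It lies on chromosome 5 from 92321347 to 92328079 (minus strand), and its libraries held 13, 16 and 6 UMIs. Region 1 held 5, 11 and 3 of them, at 3.21, 3.38 and 1.08 CPM, and region 3 held 5, 0 and 1. Regions 2, 9 and 10 had 0 UMIs in all libraries. Region 2 is thus at least 2.11-fold and region 9 at least 1.16-fold below the mean of the other regions, and for region 10 the depth sets no bound. The map of Cxcl9 was unlike that of its neighbour, since regions 1 and 3 held 70.8% ± 5.42 of its UMIs and 12.5% ± 5.17 of those of Cxcl10. Region 6, the highest for Cxcl10, had 1 UMI of Cxcl9.

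**Figure D5:**
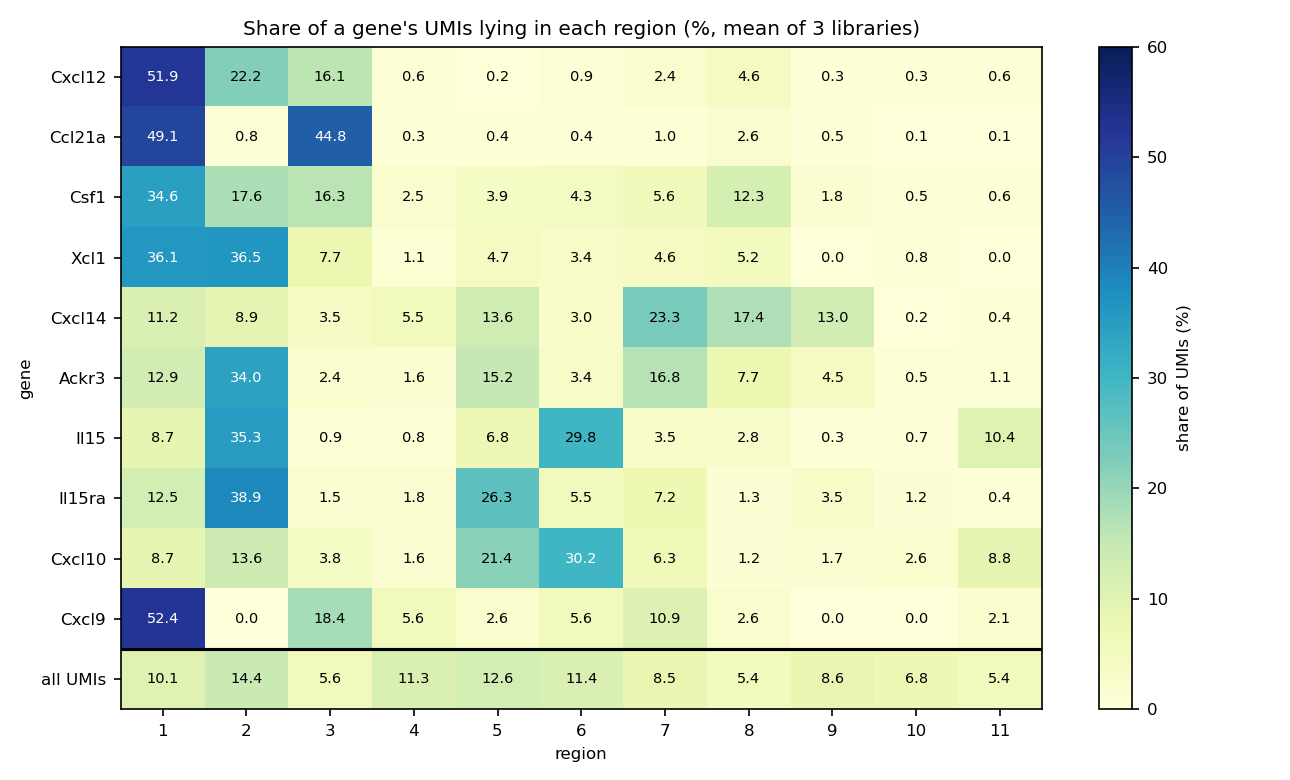
Rows are the 10 members and, at the foot, all UMIs, columns are the 11 regions, and each cell is the percent of the row's UMIs that lay in the region, as a mean of 3 libraries. Region 1 holds 51.9% of Cxcl12, region 1 or 3 nearly all Ccl21a, region 2 the largest share of Il15ra and Ackr3, and region 7 the largest share of Cxcl14, whose level is higher in region 8.

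Supply differs from level because regions differ in size. Region 2 held 5.75%, 18.0% and 13.5% of the spots of library 1-2, replicate 3 and replicate 4, and region 3 held 17.4%, 8.24% and 10.5%. How far these shares of spots moved the supply was not tested. Cxcl14 was supplied to 23.3% ± 3.82 by region 7, which is larger than region 8 with 17.4% ± 5.69. Csf1 was supplied to 34.6% ± 1.69 by region 1, 17.6% ± 8.66 by region 2 and 16.3% ± 8.64 by region 3, and Ackr3 to 34.0% ± 7.42 by region 2, 16.8% ± 2.16 by region 7 and 15.2% ± 1.36 by region 5. Regions 4, 9 and 10 together gave 6.64% ± 1.45 or less of every member but Cxcl14, of which they gave 18.7% ± 0.30.

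Across the 33 sums of 3 libraries and 11 regions, members fell into sets by their levels (Pearson r of log2(CPM + 1), centred within each library, a description over sums that share libraries and depth). Cxcl12 ran with Csf1 (0.89), Xcl1 (0.84) and Ccl21a (0.80), and Csf1 with Xcl1 (0.82). Cxcl14 ran with Ackr3 (0.79), and Ackr3 with Il15ra (0.75). Il15 was nearest to Cxcl10 (0.63), while Cxcl10 and its chromosomal neighbour Cxcl9 stood at 0.12.
Among 5785 other genes with enough counts, the 3 most like Cxcl12 were Clip3, Fn1 and Osr2 (0.94 to 0.96). Fn1 encodes fibronectin, a matrix protein. Those most like Ccl21a were Dpt, Actg2 and Aspn (all 0.96), of which Dpt and Aspn encode matrix proteins and Actg2 a smooth muscle actin. For Csf1 they were Fcrls, Plod1 and C1qc (0.94 to 0.95), with C1qc a complement gene of macrophages. For Xcl1 they were Thy1, Ccl12 and Klre1 (0.91), with Klre1 a receptor of natural killer cells.
The genes most like Cxcl14 were Gm34030, Olfml3 and Susd2 (0.94 to 0.96), and those most like Ackr3 were Myh10, Arhgap42 and Serpina3g (0.94 to 0.95). Those most like Il15 were Fxyd5, Ptprk and Krt19 (0.85 to 0.87), with Krt19 a keratin of epithelia and trophoblast. Those most like Il15ra were Pla2r1, Npr3 and Chl1 (0.91 to 0.93). Likeness was weaker for Cxcl10, with Nectin2, Vil1 and Glod5 (0.79 to 0.81), and for Cxcl9, with Clec11a, Acta1 and Slco3a1 (0.71 to 0.72).

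Of 32 other chemokines, 17 were tested. Higher calls numbered 11 in region 1 (15.1% of all genes), 10 in region 3 (16.9%) and 8 in region 8 (11.7%). They numbered 6 in region 2 (9.84%) and 4 in region 6 (13.5%). Of the 9 members tested, 7 were called higher in region 1 but 4 in region 3. In region 1 the smallest p belonged to Ccl6 (91.9, 133.4 and 116.7 CPM, 3.73 ± 0.13), Pf4 (2.91), Ccl9 (3.85) and Ccl8 (3.33), all known from macrophages or platelets. Region 2 had Ccl1, at 0.67, 12.8 and 12.4 CPM (4.66 ± 0.46), Ccl12 (2.69) and Ccl2 (2.26) called higher, the last 2 being ligands of CCR2, which draws monocytes. In region 8 Cxcl17, a mucosal chemokine, had 20.7, 27.6 and 26.2 CPM (5.43 ± 0.35), and Cx3cl1 was higher as well (1.56).
In region 6 Ccl5, a ligand that draws T cells, had 4.19, 23.9 and 19.8 CPM (2.13 ± 0.25), and Pf4 was lower (-1.81). The median log2 fold change of the 17 genes was 2.63 in region 1 and 1.87 in region 3, beside 0.05 and 0.00 over all genes tested.
Receptors of the members' ligands were mostly too low to test. Cxcr4 had 103 UMIs in all kept spots, Cxcr3 had 83, Ccr7 had 30 and Xcr1 had 13 (4 genes named because they bind member ligands), and none passed the filter. Of 22 chemokine receptor genes 8 were tested. Ccr2, the receptor of CCL2 and CCL12, was higher in region 2 at 30.8, 32.0 and 27.7 CPM (2.54 ± 0.18) and in region 1 at 24.4, 27.7 and 24.9 CPM (2.34 ± 0.20).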

How the data were processed

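The authors deposited whole UMI counts per gene and spot, which Space Ranger 1.2.2 wrote, per the file headers. Cell Ranger and the mm10 build are listed in the submitters' processing notes. Nothing in the labels pairs the libraries, and p-values measure the spread between 3 libraries. Spots under 1000 UMIs were left out (38, 1 and 0). Regions came from Leiden clustering (leidenalg 0.10.2, resolution 0.6, 20 principal components, 15 neighbours) of 1500 variable genes that hold no member or listed gene, in Python 3.11.15. Counts of the 33 library-region sums were tested in edgeR 4.0.16 (R 4.3.3, TMM, quasi-likelihood), with DESeq2 1.42.0 as an alternative; adjusted p-values in the text are from edgeR unless another tool is named. SE is the log2 fold change over the root of its F value. The tests were checked on simulated data. Detection was compared after thinning spots to 3000 UMIs. Marker quartiles were taken by summed marker CPM within each library. Members, lists and rules were chosen with earlier results of these data known. Genes of lists are named by smallest p, at most 4 per list, in the regions where a member is highest. No doublet caller was run. Positions are GENCODE on GRCm38. Results on some listed genes are not reported here.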

Additional observations from a re-analysis of the deposited data

Results flagged for a closer look

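The 39 spots left out for having under 1000 UMIs still held UMIs of members: 5 of Cxcl12 and 25 of Cxcl14, both above the limit of 3 counts that an absence of UMIs allows. Ccl21a had 2, under that limit. They enter none of the comparisons, and no spot position was used to place them.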

How the results depend on the processing

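Of the 63 called values, 22 kept their call under each of 13 alternatives; of 819 recomputed values, 700 kept direction and call, 110 kept direction only and 9 turned round. Against pooled other spots the log2 values that turned were Il15 in region 1 (-0.57), Xcl1 in regions 7 (-0.65) and 8 (-0.19), Ccl21a in region 8 (-1.02) and Cxcl12 in region 8 (-0.19), and Il15 in region 6 was no longer called (2.11); 17 values were then called higher and 51 lower, against 33 and 30. At resolution 0.3 Il15ra in region 3 turned to 0.69 and Xcl1 in region 7 to -0.54, and with the second gene set Csf1 in region 5 turned to 0.25 and 13 values were called lower. Leaving out 1 library in turn, Xcl1 in region 7 ranged from -0.0595 to 1.95, the lower calls numbered 18 to 28, and 37 of 63 calls held each time; 2 were lost without library 1-2, 16 without replicate 3 and 20 without replicate 4. Calls lost with their direction kept numbered 20 with the second gene set, 18 at resolution 1.0, 12 against pooled other spots, 10 at resolution 0.3, 8 without the library block and 2 or fewer with either DESeq2 setting, no filter, no minimum fold or at least 5000 UMIs per spot. The causes were not tested, though regions drawn another way hold other spots. Intervals and floors cover counting error only, and few UMIs per region limit the lower calls of Ccl21a, Csf1, Cxcl10 and Cxcl12. Few UMIs also limit the low values of Xcl1, none of which was called. The library block pairs regions of one library: without it, 55 of the 63 calls held. Marker quartiles within each region alone, and the comparison of spots rich in Il15 with their own regions, were chosen after seeing the data.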
